A study of Mus musculus with 6 samples.

Results

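Interleukins are secreted proteins through which leukocytes, epithelial cells and stromal cells signal to each other, and each acts through a receptor built from 1 or more membrane subunits. Most of these receptors have no enzyme of their own and signal through bound JAK kinases to STAT transcription factors. The IL-1, IL-18 and IL-17 receptors signal instead through adaptor proteins to NF-kappa-B. In skin, keratinocytes make several interleukins and carry receptors for others, and resident and incoming lymphocytes carry receptors that share subunits, such as the common gamma chain encoded by Il2rg.

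The genes described here are interleukins, interleukin receptor subunits and interleukin-binding proteins, chosen as array annotations with a single symbol that starts with Il and a digit. The IL-1 and IL-36 cytokines with IL-33 and IL-18, the IL-17, IL-22 and IL-23 axis, and the receptor genes Il1rl1, Il17ra, Il17re, Il23r and Il2rb were left out by the same rule. It gave 65 transcript clusters (groups of probes that read 1 locus) for 62 genes, among 20793 genes with a cluster of their own. They comprise 26 ligands, 32 receptor subunits and 4 decoy receptors or binding proteins.

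RNA came from whole, intact digit tips of mice at the age of 8 weeks, with 3 arrays of wild-type controls and 3 of mice labelled K14-CreER;Ctnnb1 cKO, called cKO below. K14-CreER is a Cre recombinase that is active after an inducer and is driven by the keratin 14 promoter of basal epithelium. Ctnnb1, its target here, encodes beta-catenin, the transducer of canonical Wnt signals. The sample titles call the arrays biological replicates. The labels give neither the inducer's dose and timing nor the animals behind each array, and the p-values rest on the spread among these arrays. A digit tip holds epidermis, nail, dermis, bone, vessels and leukocytes, and a difference in cell number cannot be told apart from a difference in RNA per cell.

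Each deposited value is a log2 signal from which the median of the controls had been subtracted, so levels of different genes cannot be compared and absence cannot be read. For the same reason the keratinocyte markers could be compared but not tested for presence, and limma called 0 of 6 (0 at an unadjusted p under 0.05, 0 by a plain t-test). Over all genes limma called 1.94%, and 12.5% had an unadjusted p under 0.05. The targeted Ctnnb1 gave a difference, cKO minus control, of -1.14 ± 0.24 log2 units (SE from limma, 3 arrays in each group, adjusted p 0.0284), a call that ended without control replicate 1 or 3 or cKO replicate 1 or 3. The library labelled cKO replicate 1 stood apart in sex-linked genes. Ddx3y read 8.08 there against -0.22 to 0.01 on the other arrays, and Xist -5.84 against -0.39 to 0.08. The labels give no sex, and a difference of sex cannot be told apart from other features of this array. Over all genes, cKO replicate 3 had a median of 0.09, and the other arrays had a median between -0.01 and 0.02.

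Of the 62 genes, Il2rg and Il12rb2, both receptor subunits, rose and no ligand passed the test. Il2rg encodes the subunit that the receptors for IL-2, IL-4, IL-7, IL-9, IL-15 and IL-21 share, and its signal was about 4.22 times that of the controls. Il12rb2, the subunit through which IL-12 signals in T and natural killer cells, was at 2.31 times. The calls amount to 2 of 62, against 1.94% of all genes, with 2 higher, against 1.24%, and 0 of 62 lower, against 0.697% (limma, Benjamini-Hochberg adjusted p of 0.05 over all genes). The same 62 held 11 differences above 0 and 2 below 0 with an unadjusted p under 0.05, against 6.73% and 5.73% of all genes. None of the 62 was called when each gene was tested with a plain t-test (0 of 62).

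All 3 cKO arrays lay above all 3 controls in 11 of the 62 genes (17.7%, against 10.1% of all genes) and below them in 3 (4.84%, against 9.25%). The 11 were Il2rg, Il12rb2, Il4ra, Il7r, Il10rb, Il18rap, Il18r1, Il12b, Il1f10, Il22ra2 and Il21, and the 3 were Il34, Il6ra and Il22ra1. By role, 7 of 32 receptor subunits, 3 of 26 ligands and 1 of 4 decoys or binding proteins were separated upwards. In either direction 14 of 62 were separated (22.6%, against 19.4% of all genes). The median difference was 0.05 over receptor subunits and 0.11 over ligands, against 0.09 over the 62 and -0.004 over all genes.

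**Figure D1:**
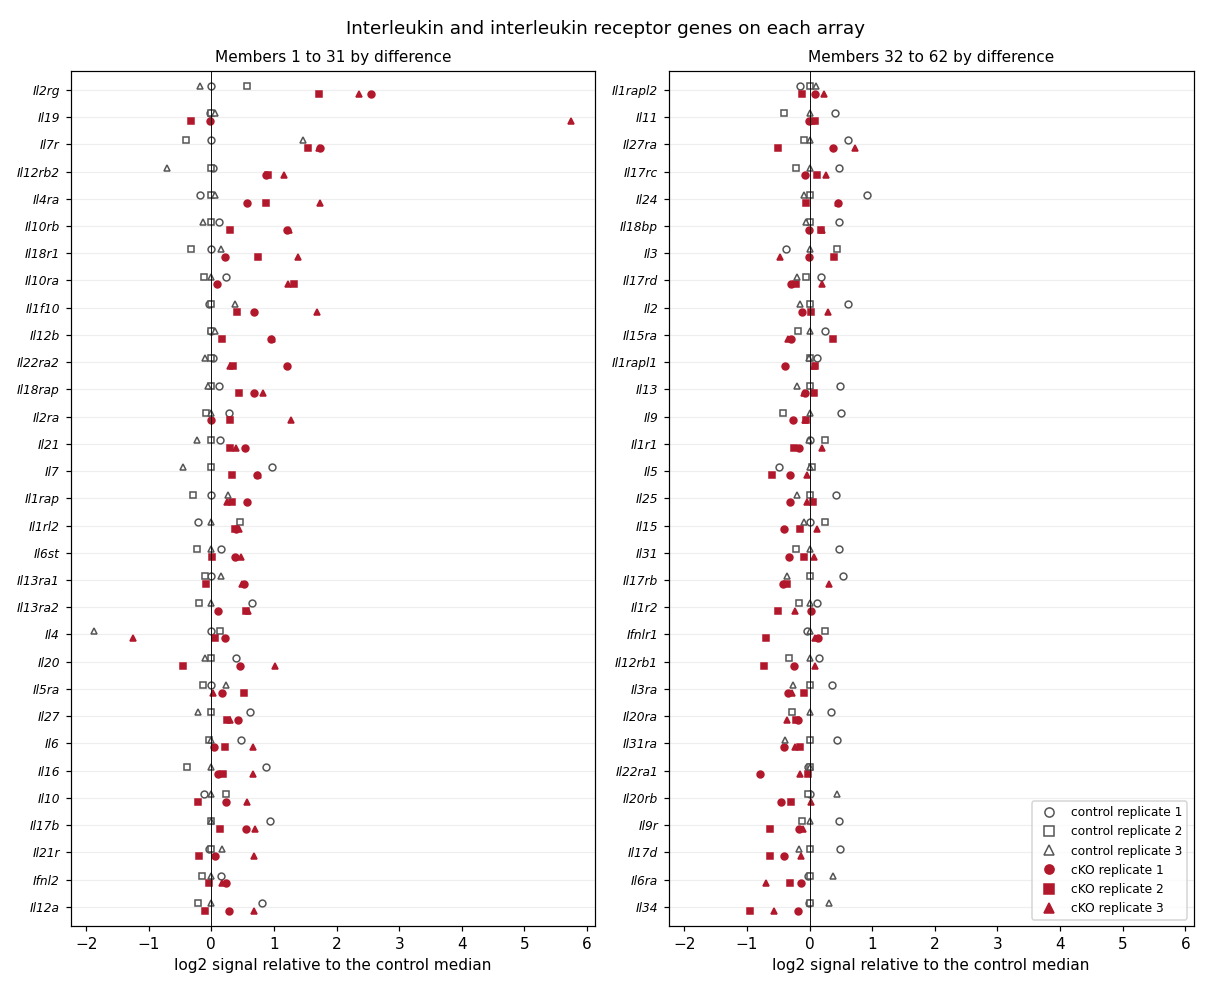
Each point is the log2 value of a gene on 1 array after subtraction of the control median, for the 62 interleukin and interleukin receptor genes ordered by their difference (open symbols controls, filled symbols cKO, shapes the replicate numbers). Il2rg and Il12rb2 have a gap between the groups, and the point at 5.75 is Il19 on cKO replicate 3.

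The arrays contributed unequally. Replicate 3 of the cKO was the highest of the 3 cKO arrays in 36 of the 62 genes (58.1%, against 45.2% of all genes), and its median over the 62 was 0.28 against 0.07 and 0.04 on cKO replicates 1 and 2. Among controls, replicate 1 was the highest in 38 (61.3%, against 48.4% of all genes).

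**Figure D2:**
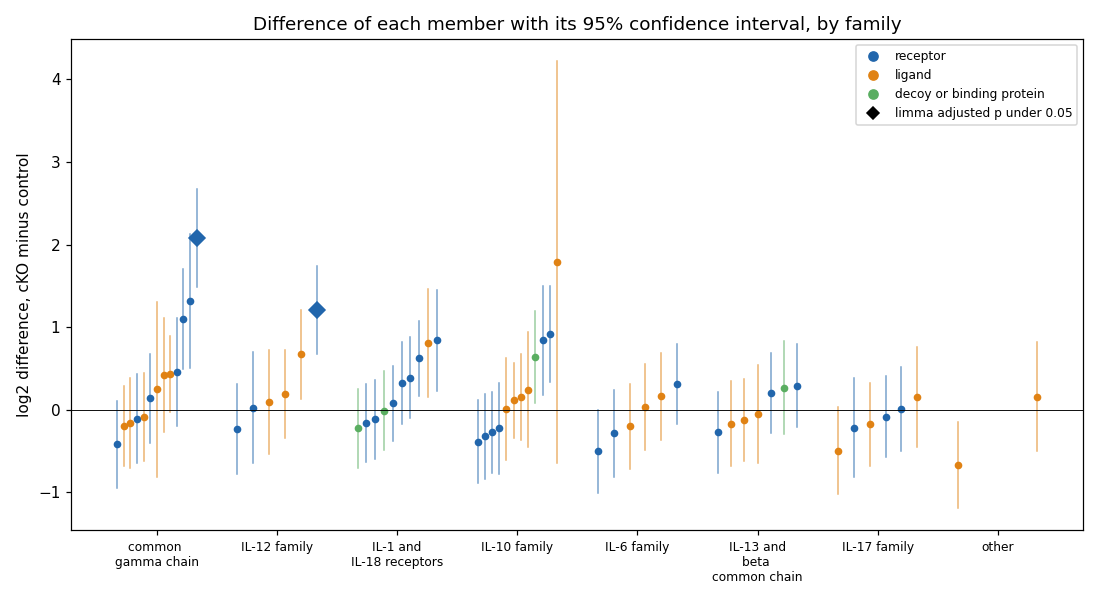
The log2 difference of each of the 62 genes, cKO minus control, with its 95% confidence interval from limma, grouped by receptor family and coloured by role, with diamonds for an adjusted p under 0.05. The diamonds are Il2rg at 2.08 and Il12rb2 at 1.21, and the interval of Il19 runs from -0.64 to 4.22.

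The promoters of Il12rb2 and of the gamma-chain family receptors whose groups did not overlap are shown because they hold both called genes and the other receptor subunits of the family to which Il2rg belongs that were separated. Each window runs 5′ to 3′ along the gene from 250 bases before to 50 bases after its annotated start in RefSeq, build GRCm38.p6. Capitals mark matches, on either strand, to 4 motifs picked with the sequences in view: the TCF/LEF core CTTTGA, the STAT motif TTCNNNGAA, the AP-1 motif TGANTCA and the ETS core CCGGAA.
Il2rg, chrX:101268206-101268505, minus strand: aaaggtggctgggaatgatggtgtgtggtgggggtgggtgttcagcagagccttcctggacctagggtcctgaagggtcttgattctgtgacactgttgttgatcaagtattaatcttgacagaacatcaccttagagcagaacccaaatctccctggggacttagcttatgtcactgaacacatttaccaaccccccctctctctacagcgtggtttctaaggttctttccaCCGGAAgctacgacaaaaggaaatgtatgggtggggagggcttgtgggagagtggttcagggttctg
Il12rb2, chr6:67376139-67376438, minus strand: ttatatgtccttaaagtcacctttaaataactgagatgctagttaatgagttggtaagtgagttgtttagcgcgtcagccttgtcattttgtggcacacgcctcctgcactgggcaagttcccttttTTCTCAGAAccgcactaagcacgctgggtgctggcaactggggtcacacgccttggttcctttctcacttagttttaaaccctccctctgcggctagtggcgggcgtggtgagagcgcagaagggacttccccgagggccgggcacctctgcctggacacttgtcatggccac
Il4ra, chr7:125552021-125552320, plus strand: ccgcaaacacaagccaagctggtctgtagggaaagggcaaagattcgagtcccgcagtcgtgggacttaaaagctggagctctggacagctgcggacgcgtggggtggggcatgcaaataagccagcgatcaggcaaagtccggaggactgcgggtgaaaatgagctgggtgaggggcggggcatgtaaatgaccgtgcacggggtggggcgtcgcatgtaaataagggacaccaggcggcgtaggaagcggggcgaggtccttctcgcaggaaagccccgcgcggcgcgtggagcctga
Il7r, chr15:9529827-9530126, minus strand: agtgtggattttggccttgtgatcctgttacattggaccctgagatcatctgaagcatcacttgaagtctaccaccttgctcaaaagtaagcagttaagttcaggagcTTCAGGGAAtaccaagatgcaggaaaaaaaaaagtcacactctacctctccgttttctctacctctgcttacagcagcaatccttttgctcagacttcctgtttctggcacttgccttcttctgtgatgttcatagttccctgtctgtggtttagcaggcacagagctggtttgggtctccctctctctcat

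The Il2rg window held 1 ETS core and the Il12rb2 and Il7r windows 1 STAT motif each, while the Il4ra window held no match to any of the 4 motifs. Neither the TCF/LEF core nor the AP-1 motif lay in any of the 4 windows. Among all 32851 promoter windows of that table, 16.0% held the TCF/LEF core, 8.30% the STAT motif, 7.81% the AP-1 motif and 14.9% the ETS core, so matches of this kind are common. A match here is a run of letters and not a measured binding site.

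Within the common gamma chain family, the 3 widest differences were in receptor subunits. Il2rg read 0, 0.57 and -0.18 on control replicates 1, 2 and 3 and 2.55, 1.71 and 2.35 on cKO replicates 1, 2 and 3. The groups were separated by a gap of 1.14, larger than the range within the controls or within the cKO. The difference was 2.08 ± 0.27, with a 95% confidence interval of 1.48 to 2.67 (limma adjusted p 0.00121), and it stayed between 1.90 and 2.32 when any 1 array was left out, with adjusted p-values of at most 0.0272. The plain t-test over all genes gave an adjusted p of 0.194. Il2rg is 1 of 5 of the 62 genes on chromosome X, and without cKO replicate 1, the array that stood apart in sex-linked genes, its difference was 1.90 (limma adjusted p 0.00393). A further cluster, annotated to both Gm614 and Il2rg and spanning mm9 positions 98456716 to 98459331 next to the Il2rg cluster at 98459717 to 98463545, differed by -0.21 and was not tested because it is shared.

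Il4ra, the subunit that binds IL-4 and, with Il13ra1, forms the receptor for IL-13, read -0.18, 0 and 0.06 in the controls against 0.57, 0.87 and 1.73 in the cKO. The groups did not overlap, and cKO replicate 3 was the highest by a wide margin. Its difference of 1.10 ± 0.28 had a limma adjusted p of 0.0789, and it passed at 1.34 when cKO replicate 1 was left out (0.0356) and with the replicate number as a block (0.0193). Without cKO replicate 3 it was 0.76, and the plain t-test gave an adjusted p of 0.394.

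Il7r, the subunit that binds IL-7 and, with a partner encoded by Crlf2, the epithelial cytokine TSLP, read 0, -0.40 and 1.46 in the controls against 1.73, 1.54 and 1.72 in the cKO. The cKO arrays lay close together, and control replicate 3 came within 0.09 of the lowest of them. The difference of 1.31 ± 0.37 had a limma adjusted p of 0.119, and without control replicate 3 it was 1.87 with an adjusted p of 0.00198. With the replicate number as a block it was called as well (0.0142). Over all fits without 1 array it was 0.94 to 1.87, with limma adjusted p-values up to 0.388. The plain t-test gave an adjusted p of 0.489.

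The other subunits of the family had overlapping groups. Il2ra, the high-affinity subunit for IL-2, differed by 0.46 ± 0.30, and its highest reading, 1.27, came from cKO replicate 3. Without that array its difference was 0.08. Il21r, the receptor for IL-21, differed by 0.14 ± 0.25, Il15ra, which presents IL-15 to neighbouring cells, by -0.11 ± 0.25, and Il9r, the receptor for IL-9, by -0.42 ± 0.24. Il2rb, which pairs with Il2rg in the IL-2 and IL-15 receptors but lies outside the selection, rose by 1.27 ± 0.22 (limma adjusted p 0.00678), with cKO arrays between 1.20 and 1.36, and was not called by the plain t-test (0.143).

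Ligands of the gamma-chain receptors gave 0 calls of 6 with limma and with the plain t-test, and 0 had an unadjusted p under 0.05. Over all genes limma called 1.94%, and 12.5% had an unadjusted p under 0.05. Il21, a cytokine of helper T cells, was the 1 ligand of the 6 with separated groups, with 0.14, 0 and -0.23 in the controls against 0.53, 0.30 and 0.39 in the cKO, a difference of 0.44 ± 0.21 (limma adjusted p 0.433). Il7, which stromal and epithelial cells make, differed by 0.42 ± 0.32, with 0.82 when control replicate 1 was left out and 0.11 when control replicate 3 was, and Il15 by -0.20 ± 0.22. Il4, the defining cytokine of type 2 helper cells, differed by 0.25 ± 0.49. Its low readings came from replicate 3 of both groups, -1.87 in the control and -1.26 in the cKO, and without control replicate 3 the difference was -0.40.

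**Figure D3:**
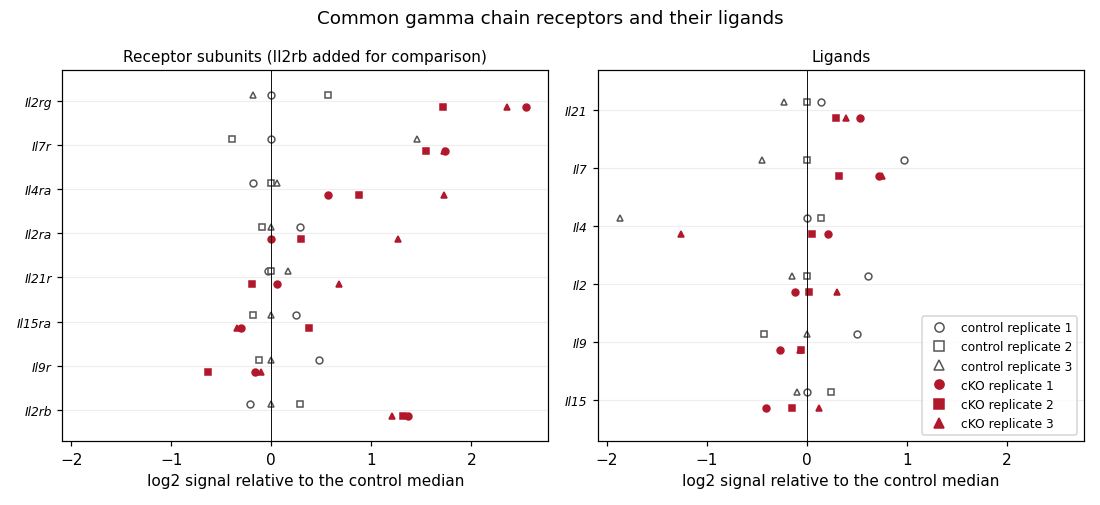
Log2 values, control median subtracted, on each array for the 7 receptor subunits (left, with Il2rb added) and 6 ligands (right) of the common gamma chain family, open symbols for controls and filled symbols for cKO. Il2rg, Il4ra and Il7r have cKO arrays above every control, and among the ligands only Il21 does.

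Genes of the IL-12 family have adjoining roles: Il12b encodes the p40 chain that IL-12 and IL-23 share, Il12a the partner chain of IL-12, and Il12rb1 the receptor subunit common to both cytokines. Il12rb2 read 0.02, 0 and -0.71 in the controls against 0.87, 0.90 and 1.16 in the cKO. The cKO arrays were tight, the control spread came from replicate 3, and the gap between groups was 0.85. Its difference was 1.21 ± 0.25, with a 95% confidence interval of 0.68 to 1.74 (limma adjusted p 0.0218). The call ended without control replicate 1 (0.051), control replicate 3 (0.108, at 0.97) or cKO replicate 3 (0.146), and under the plain t-test over all genes (0.257).

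Il12b read -0.01, 0 and 0.06 in the controls against 0.95, 0.16 and 0.97 in the cKO, so that 2 cKO arrays were well above the controls and cKO replicate 2 just above. The difference was 0.67 ± 0.25 (limma adjusted p 0.26). Il12rb1 differed by -0.23 ± 0.25, Il12a by 0.10 ± 0.29 and Il27ra, the receptor for the related cytokine IL-27, by 0.03 ± 0.31, all with overlapping groups. Whether Il12rb1 and Il12rb2 differ from each other was not tested.

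The IL-1 and IL-18 receptor genes lie side by side on chromosome 1 and read in an uneven pattern along their run. In the order Il1r2, Il1r1, Il1rl2, Il1rl1, Il18r1 and Il18rap, over 464.5 kb between mm9 positions 40141613 and 40606150, the differences were -0.22, -0.16, 0.32, 1.53, 0.84 and 0.62. Il1rl1, the IL-33 receptor, lies outside the selection and rose by 1.53 ± 0.27 (limma adjusted p 0.0092), a call that ended without control replicate 1 (0.0662) and under the plain t-test (0.259). Its neighbours Il18r1, which binds IL-18, and Il18rap, the accessory chain that IL-18 signalling needs, had separated groups without passing the test. Il18r1 read 0, -0.33 and 0.16 in the controls against 0.22, 0.74 and 1.38 in the cKO (0.84 ± 0.28, limma adjusted p 0.208, and 0.54 without cKO replicate 3). For Il18rap the readings were 0.13, 0 and -0.06 against 0.68, 0.43 and 0.82 (0.62 ± 0.21, limma adjusted p 0.208).

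At the other end of the run, the signalling IL-1 receptor Il1r1 (-0.16 ± 0.22) and the decoy receptor Il1r2 (-0.22 ± 0.22), which binds IL-1 without signalling, had overlapping groups. Il1rl2, the IL-36 receptor, read between 0.37 and 0.43 on the cKO arrays, but control replicate 2 was at 0.46. Il1rap, the accessory chain of the IL-1, IL-33 and IL-36 receptors, lies on chromosome 16 and differed by 0.39 ± 0.22. Il18bp, the soluble protein that binds IL-18, differed by -0.01 ± 0.22, with a 95% confidence interval of -0.49 to 0.47. The 1 cytokine of the IL-1 family among the 62 genes is Il1f10, also called IL-38, which read -0.03, 0 and 0.37 in the controls against 0.68, 0.40 and 1.69 in the cKO (0.81 ± 0.30, limma adjusted p 0.268). Without cKO replicate 3 its difference was 0.43.

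The IL-10 family showed higher readings in its IL-10 receptor pair and 1 extreme value in a ligand. Il10rb, the subunit that the receptors for IL-10, IL-22 and type III interferons share, read 0.12, 0 and -0.14 in the controls against 1.20, 0.30 and 1.24 in the cKO. The groups were separated, with cKO replicate 2 near the controls. The difference was 0.92 ± 0.27 (limma adjusted p 0.128), and it passed at 1.23 when cKO replicate 2 was left out (0.0185) and with array weights (0.0322). Over all fits without 1 array it was 0.75 to 1.23, with limma adjusted p-values up to 0.432. Il10ra, the subunit specific to IL-10, had another array near the controls. It read 0.24, -0.12 and 0 in the controls against 0.09, 1.32 and 1.22 in the cKO (0.84 ± 0.30, limma adjusted p 0.247), and passed at 1.23 when cKO replicate 1 was left out (0.0291). Its difference without 1 array ranged from 0.62 to 1.23, with limma adjusted p-values up to 0.623. IL-10 itself (Il10), an inhibitory cytokine, differed by 0.16 ± 0.24.

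Il19, whose product acts on keratinocytes through the Il20ra and Il20rb subunits, read -0.03, 0 and 0.05 in the controls against -0.02, -0.33 and 5.75 in the cKO. A single array, cKO replicate 3, thus held the whole difference of 1.79 ± 1.12 (limma adjusted p 0.572), which was -0.18 without it. Of the 20793 genes, Il19 was the 1 gene whose signal on cKO replicate 3 exceeded every other array by at least 4 on the log2 scale, and no gene did so on a control array or on cKO replicate 2. Zfp69 came close on cKO replicate 3, with an excess of 3.89, and 7 genes had an excess of at least 2 there. On cKO replicate 1 the 3 genes that did were Ddx3y, Eif2s3y and Uty. The chemokine gene Cxcl2, named after its values were seen, was also highest on cKO replicate 3, at 4.74, with 2.39 and -0.60 on the other cKO arrays.

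Genes around Il19 on chromosome 1 did not share the extreme value. Over 142.9 kb of mm9, from Il24 through Il20 and Il19 to Il10, cKO replicate 3 read 0.46, 1.02, 5.75 and 0.57. Il20, with 0.39, 0 and -0.10 in the controls against 0.45, -0.46 and 1.02 in the cKO, differed by 0.24 ± 0.32, and Il24 by 0.01 ± 0.28. The receptor subunits for this group of cytokines had differences below 0 and were not called, with Il20ra at -0.27 ± 0.22, Il20rb at -0.38 ± 0.23 and Il22ra1, the partner of Il10rb in the IL-22 receptor, at -0.32 ± 0.24, its groups separated by a gap of 0.0062. The 3 clusters of Il20rb ran the same way, from -0.47 to -0.34. Il22ra2, a soluble protein that binds IL-22, read 0.03, 0 and -0.11 in the controls against 1.20, 0.34 and 0.30 in the cKO (0.64 ± 0.26, limma adjusted p 0.317), and the difference was 0.35 without cKO replicate 1.

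**Figure D4:**
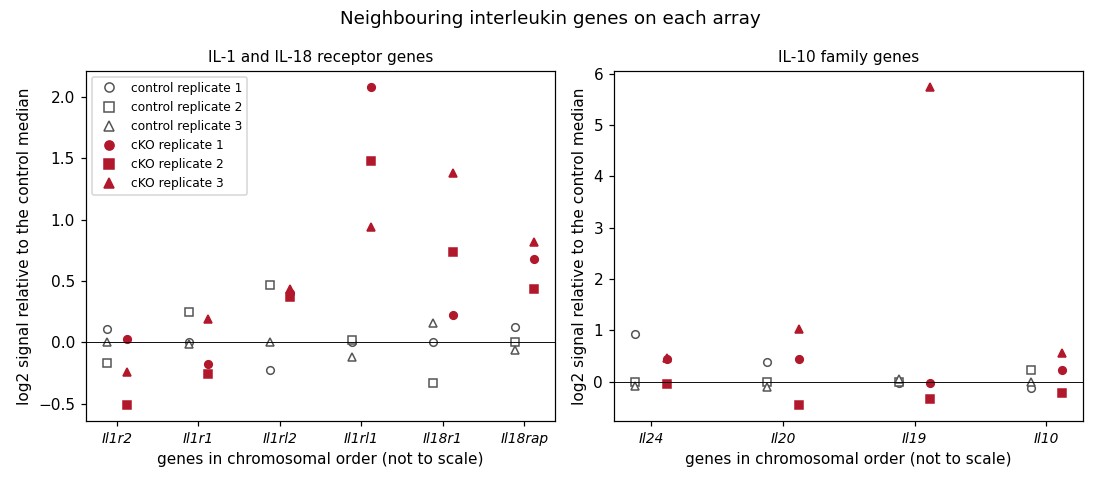
Log2 values, control median subtracted, on each array for neighbouring genes in chromosomal order (spacing not to scale), the IL-1 and IL-18 receptor genes on the left and the IL-10 family genes on the right. Il1rl1, Il18r1 and Il18rap have cKO arrays above all controls, and the reading of 5.75 for Il19 is not shared by the genes beside it.

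In the IL-6 family no gene passed the test and the receptor subunits differed in sign. Il6ra, the subunit that binds IL-6, read -0.02, 0 and 0.38 in the controls against -0.14, -0.32 and -0.70 in the cKO. Its groups did not overlap, and the difference was -0.50 ± 0.23 (limma adjusted p 0.397). Il6st, the gp130 chain through which IL-6 and IL-11 signal, differed by 0.31 ± 0.22, and Il6 itself by 0.16 ± 0.24. Il31ra, a subunit of the receptor for the itch cytokine IL-31, differed by -0.28 ± 0.24, and by -0.07 without control replicate 1.

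Type 2 cytokines and their receptors, Il4ra apart, had small differences. Il13 differed by -0.13 ± 0.23 and Il5, the eosinophil growth factor, by -0.17 ± 0.24, and these lie within 112.6 kb of Il4 on chromosome 11. Il13ra1, which pairs with Il4ra, differed by 0.29 ± 0.23, and the decoy Il13ra2 by 0.26 ± 0.26, with a leave-one-out range of 0.09 to 0.51. Il3, a growth factor of mast cells and basophils, differed by -0.05 ± 0.28. Limma called 0 of the 7 genes of the IL-13 and beta common chain group, and 0 had an unadjusted p under 0.05. The shares over all genes were 1.94% and 12.5%.

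Il34, a keratinocyte and neuron cytokine that acts through Csf1r and maintains Langerhans cells, had the largest difference below 0 among the 62. It read -0.02, 0 and 0.32 in the controls against -0.18, -0.95 and -0.56 in the cKO. All cKO arrays lay below all controls, and the difference was -0.66 ± 0.24 (limma adjusted p 0.253). Cd207, the langerin gene of Langerhans cells, named after its values were seen, read -0.08, 0 and 0.30 against -0.44, -1.16 and -0.20, a difference of -0.67 ± 0.26 (limma adjusted p 0.303). In both genes cKO replicate 2 was the lowest, while cKO replicates 1 and 3 ranked in opposite order. Neither gene was called, and a link between them was not tested. Cd207 belongs to a list of 10 macrophage and dendritic cell markers, of which 7 differed above 0 and 3 below. Csf1r, which macrophages also express, differed by 0.48 ± 0.30.

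Of the IL-17 family genes included here, Il17d differed by -0.49 ± 0.24 (limma adjusted p 0.437). In the family limma called 0 of 6, against 1.94% of all genes, with 0 at an unadjusted p under 0.05, against 12.5%. Its other members are among the 17 genes not described singly. Those 17, with Il2, Il9, Il11, Il16, Il25, Il27, Il31, Il17b and the type III interferon gene Ifnl2 as ligands and Il3ra, Il5ra, Il17rb, Il17rc, Il17rd, Il1rapl1, Il1rapl2 and Ifnlr1 as receptors, differed by -0.27 to 0.21. Their groups overlapped in 17 of 17, and 8 differences were above 0 and 9 below. Over all genes the groups were separated in 19.4%. Members with an unadjusted p under 0.05, and others after their values were seen, had been named singly. The narrow range and the overlap of the 17 therefore follow partly from that choice.

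Signalling genes downstream of these receptors were compared through lists written with earlier results of these data known. Of 23 JAK, STAT, SOCS and linked genes, Irs1, an adaptor of insulin and IL-4 receptors, fell by 1.75 ± 0.28 (limma adjusted p 0.00448) and 22 did not pass. The median of that list was -0.13. Jak2 differed by 0.74 ± 0.20 (limma adjusted p 0.106) and Stat3, the factor downstream of IL-6, IL-10 and IL-22 receptors, by 0.58 ± 0.21 (0.245), each with separated groups. Jak2 was called with array weights (0.0408) but not without any 1 array (limma adjusted p 0.13 to 0.359). Of 21 genes of IL-1 and Toll-like receptor signalling, Nfkbiz, an NF-kappa-B cofactor induced by IL-1 and IL-17, rose by 2.05 ± 0.22 (limma adjusted p 0.000269), while 20 did not pass, Nfkbia among them at 0.58 ± 0.21. That list's median was 0.19.

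Genes of the type 2 response split. Of 21, Arg1, arginase 1, rose by 1.99 ± 0.23 and Ear2, a ribonuclease gene with near-identical relatives whose share is uncertain, by 1.17 ± 0.21. Gata3, a transcription factor of type 2 lymphocytes and also of epidermis and hair follicle, fell by 1.80 ± 0.28. The limma adjusted p of these 3 lay between 0.00039 and 0.00899, 18 did not pass, and the list's median was -0.01. The call of Ear2 ended without cKO replicate 3 (0.0535). The plain t-test ended all 5 calls in these lists, with adjusted p-values of 0.244 for Irs1, 0.105 for Nfkbiz, 0.12 for Arg1, 0.237 for Gata3 and 0.0942 for Ear2.

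Partners of the IL-6 family gave 0 limma calls of 13, against 1.94% of all genes, around a median of -0.0002. Of the 13, 4 had an unadjusted p under 0.05, against 12.5% of all genes, and 0 passed the plain t-test. Lifr, the receptor for leukemia inhibitory factor, differed by -0.95 ± 0.22 (limma adjusted p 0.0503), and Ctf1, cardiotrophin 1, by -0.84 ± 0.25. Lifr was called with array weights (0.0179) but not without any 1 array (limma adjusted p 0.0678 to 0.242). Of 16 further cytokine and receptor genes of the same structural classes, limma called 0, as did the plain t-test. In that list 6 had an unadjusted p under 0.05, against 12.5% of all genes. Both interferon gamma receptor genes, Ifngr1 (0.83 ± 0.22) and Ifngr2 (0.71 ± 0.21), had separated groups in that list, whose median was 0.03. Ifngr1 was called with array weights (0.0266). It was not called without any 1 array (limma adjusted p 0.0681 to 0.318) or under the plain t-test (0.261).

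Some T cell and macrophage markers rose in the same cKO arrays, and their part in the differences of the receptor genes was not tested. Of 9 measured T cell markers Cd3g (3.52 to 4.24 on the cKO arrays, -0.32 to 0.05 on the controls) and Cd3d (1.65 ± 0.27) rose. The other 7 did not pass, among them Cd3e (0.32 ± 0.24). The list's mean log2 value was -0.15 to 0.07 in the controls and 0.63 to 0.78 in the cKO, and rests largely on Cd3g and Cd3d. Its median difference was 0.32, with 7 differences above 0 and 2 below, Cd4 (-0.17 ± 0.23) and Cd5 (-0.35 ± 0.36). Of 10 macrophage and dendritic cell markers Ccr2 (1.63 ± 0.25) and Lyz2 (1.27 ± 0.24, not called without control replicate 3 or cKO replicate 3) rose and 8 did not pass, with means of -0.08 to 0.47 against 0.17 to 0.73. That list's median difference was 0.46, with 7 differences above 0 and 3 below. Those below were Cd163 (-0.80 ± 0.45), Cd207 (-0.67 ± 0.26, groups separated) and Itgax (-0.17 ± 0.25). Under the plain t-test these 4 calls ended, with adjusted p-values of 0.0551 for Cd3g, 0.243 for Cd3d, 0.194 for Ccr2 and 0.223 for Lyz2. Of 7 natural killer and innate lymphoid markers limma called 0 (1 at an unadjusted p under 0.05, 0 by the plain t-test), with means of -0.09 to 0.16 against 0.02 to 0.22. The B cell (6), mast cell and basophil (9) and eosinophil (4) lists each had 0 calls and 0 at an unadjusted p under 0.05, and 0 by the plain t-test. Over all genes the shares were 1.94% for limma calls and 12.5% for an unadjusted p under 0.05. The neutrophil list held 2 calls of 11, S100a8 and S100a9, which keratinocytes can also express, with means of -0.10 to 0.23 against 0.97 to 1.20. Those means rest on S100a8 (5.05 ± 0.21) and S100a9 (4.89 ± 0.23), since the other 9 differed by -0.31 to 0.49 and the median over the list was 0.26. Fibroblast markers gave means of -0.41 to 0.09 against 0.56 to 0.66, with 2 limma calls of 6 (0 by the plain t-test). The calls were Col1a1 (2.01 ± 0.29) and Col3a1 (1.41 ± 0.25). That list's median difference was 0.51, with 5 differences above 0 and 1 below, Dcn (-0.37 ± 0.21, groups separated). Endothelial markers gave means of -0.34 to 0.13 against 0.37 to 0.74, with 0 limma calls of 6 (4 at an unadjusted p under 0.05, 0 by the plain t-test, 2 with array weights).

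The authors' deposited table of clusters changed at least 1.5-fold holds 1755 of the 28853 clusters on the array. It lists 13 of the 62 genes, 12 of them up and Il34 down. The split into up and down over all its clusters was not counted. In that deposited table the fold score was 4.22 for Il2rg, 3.46 for Il19, 2.49 for Il7r, 2.31 for Il12rb2 and 2.14 for Il4ra. The authors' deposited table of statistically significant clusters holds 681 clusters. It keeps 3 of the 62 genes, Il2rg, Il12rb2 and Il18rap, with corrected p-values of 0.0219, 0.0343 and 0.032. Il18rap was not called over all genes here. The tables differ in that the authors' test ran over clusters already past the fold filter.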

How the data were processed

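RNA of 6 digit tip samples (3 control, 3 cKO by the sample titles) was measured on Affymetrix MoGene 1.0 ST arrays. The labelling kit that the labels name is one for 3 prime expression arrays, not for this whole-transcript array, and the kit really used is unknown. Per the deposited methods sheet, the authors normalised signals with PLIER16 and quantile normalisation, took log2 values and subtracted the control median of each cluster, which is 0 in all 28853 clusters. Depth, background and detection cannot be read from them, and the number of arrays limits the precision. Per the file headers, the authors' deposited fold score is a signed ratio, and their p-values come from an unpaired test after a 20th percentile and a 1.5-fold filter, with Benjamini-Hochberg correction. Positions are mm9, per the file headers. Chromosomes and 2 updated symbols (Ifnl2, Ifnlr1) come from a RefSeq table of GRCm38.p6, to which all 65 clusters were matched.

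Here, 22971 single-gene clusters were averaged to 20793 genes and fitted by lmFit and eBayes (limma 3.58.1, R 4.3.3), cKO minus control without covariate, with Benjamini-Hochberg adjustment over all genes at 0.05. Errors are limma standard errors. The fit was tested on simulated data. Another 8 clusters shared by an interleukin gene and other genes were not tested. The rule for named genes took called members, members with an unadjusted p under 0.05, 26 fixed receptor and ligand genes and, from each list described, called genes. In the signalling and cytokine lists without a call the 2 of smallest p were named. No gene was named from the cell type lists without a call. A further 14 members and Cd207, Csf1r, Cd163, Itgax, Cd3e, Cd4, Cd5, Dcn, Cxcl2, Zfp69, Il1rl1, Il2rb, Nfkbia, Jak2, Stat3 and the sex-linked genes were named after their values were seen. The members and lists were chosen with earlier results of these data known. Alternatives were array weights, the workbook values, a block on replicate number, centred arrays, a plain t-test, robust variances and single clusters. Others were genes with 1 cluster, a percentile filter on subtracted values, a fold minimum, an adjusted p of 0.1, and leaving out each array. Tables and figures were made with Python 3.11.15, pandas 2.3.3 and matplotlib 3.10.9.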

Additional observations from a re-analysis of the deposited data

How the results depend on the processing

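The count of interleukin members called higher was 2, and 2 or 3 under most settings, but 4 with the replicate number as a block (Il4ra and Il7r added) and 0 under the plain t-test over all genes. Leaving out 1 array gave 1 to 4, and Il2rg was called each time. The count called lower was 0 under every setting, but the percentile filter could remove lower genes before testing and left 51 members. Over all genes the counts were 258 higher and 145 lower. They were 523 and 305 with array weights, 10 and 3 under the plain t-test, and 357 and 218 with the replicate block. The percentile filter, applied here to subtracted values and so able to remove lower genes, gave 307 and 47. At an adjusted p of 0.1 the counts were 366 and 230, and 133 to 261 and 59 to 165 when 1 array was left out. Ctnnb1 was not called under the plain t-test (-1.14, adjusted p 0.258), and its difference lay between -1.31 and -0.91 without 1 array. Deviations of same-numbered arrays from their group means correlated at 0.04, 0.14 and -0.09 over genes, against -0.19 to 0.14 for the other pairs. Replicates 1 and 2 of the cKO correlated best with the control of their own number, and cKO replicate 3 did not. With 3 arrays in each group these values cannot settle whether replicate numbers pair the samples.

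Differences near 0 changed sign under some settings. With centred arrays Il24 (-0.023) and Il27ra (-0.0035) did so, and with array weights Il18bp (0.040). Leaving out 1 array gave ranges across 0 for Il10 (-0.031 to 0.36), Il12a (-0.11 to 0.40), Il13 (-0.27 to 0.067), Il15ra (-0.34 to 0.020), Il18bp (-0.11 to 0.16), Il19 (-0.18 to 2.85), Il20 (-0.098 to 0.64), Il21r (-0.11 to 0.33), Il24 (-0.18 to 0.33), Il27ra (-0.24 to 0.38), Il3 (-0.26 to 0.17), Il4 (-0.40 to 0.71) and Il6 (-0.014 to 0.33). For Il19 the array was cKO replicate 3; beyond the array left out, the cause was not tested.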
